A study of Mus musculus with 6 samples.

Results

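Insulin and the insulin-like growth factors share one signalling cascade, and 10 of its genes were read from expression arrays of newborn mouse liver: the insulin receptor Insr, the adaptors Irs1 and Irs2, the PI3-kinase regulatory subunit Pik3r1, the kinases Akt1 and Akt2, the transcription factors Foxo1 and Foxo3, and the mTORC1 brakes Ddit4 and Eif4ebp1. Their probes were picked by gene symbol from the platform annotation, but the genes themselves were chosen with earlier results of these data known. They are 10 of the 19057 genes with a probe, and had 19 of the 45281 probes. Of these, 13 probes from 9 genes were detected (p under 0.05) on 3 or more of the 6 arrays. Akt2 was the gene left without a usable probe. Of the 6 samples, 3 carried an Igf2 knockout and 3 were wild type (WT), with 1 array for each sample. Both groups were newborn and shared a mixed background of the 129 and C57Bl/6 strains. The labels do not give the deleted part of Igf2, how the knockout was inherited, or whether an array holds RNA of a single pup. The 3 samples of a group are not stated to come from separate litters, so the p-values cover the spread between these arrays, which may be technical.

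A receptor tyrosine kinase of this family phosphorylates insulin receptor substrates when it binds its ligand. The substrates recruit PI3-kinase, whose lipid product activates AKT. AKT in turn drives FOXO factors out of the nucleus, where they would switch on genes of glucose production and growth arrest, and it relieves the restraint on mTORC1, the kinase complex that promotes protein synthesis. Igf2, the deleted ligand, is a hormone of fetal growth that signals through the IGF1 receptor and through a fetal form of the insulin receptor.

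Igf2 signal was 9337.3, 11865.8 and 9676.2 on knockout arrays 1, 2 and 3, against 19804.8, 19194.5 and 18656.0 on the WT arrays (deposited intensity, a linear scale in arbitrary units). All knockout arrays lay below all WT arrays, and the log2 fold change was -0.91 ± 0.11 (SE; limma adjusted p = 0.0022). The position of the Igf2 probe relative to the deletion was not analysed here. Hepatocyte markers were detected on all 6 arrays for 12 of 12 genes, and their summed signal was 187570.8 to 192733.6 in the knockout and 188602.4 to 191688.2 in WT. The deposited values were already normalized between arrays, which limits how far a sum of the brightest probes can differ. Equal hepatocyte content cannot be read from it. Within that sum Cps1 was higher on all knockout arrays (18902.6 to 19125 in the knockout, 11899.4 to 15426.2 in WT). Afp, Serpina1a, Ttr and Fgb were lower on all of them. Of the 12 genes, 1 rose and 0 fell by the test (limma adjusted p under 0.05). Lung markers stood apart on knockout arrays 1 and 2, where 10 genes (5 of them detected on 3 or more arrays) summed to 9088.7 and 23734.6, against 696.5 on knockout array 3 and 640.9 to 746.5 in WT. Knockout array 3 was not free of them, with Sftpc at 66.4 and Scgb1a1 at 42.9, against at most 10.7 and 8.1 in WT, while Sftpd was lower there (62.4) than in WT (136.1 to 174.5). Xist, which marks an inactive X chromosome, had signals of 1984.2, 1822.5 and 17.9 in the knockout and 1017.5, 4.1 and 5.4 in WT, in array order. The Y chromosome genes Eif2s3y, Uty and Kdm5d were detected on all 6 arrays, those with high Xist included. Eif2s3y had 684.9, 619.2 and 1054.7 in the knockout and 886.6, 925.3 and 1084.5 in WT, so the sex of the samples was not settled. Summed exocrine pancreas markers, with 5 of 9 genes detected on no array, were 13200.6 to 14250.3 in the knockout and 9811.2 to 11017.4 in WT. The amylase gene Amy2a5 made up most of that sum (11765.6 to 12858.1 in the knockout, 9438.5 to 10736.1 in WT), Cela1 overlapped, and Reg1 had 806.0, 2134.6 and 51.6 in the knockout and 6.5 to 13.8 in WT. Endothelial markers summed to 9605.4 to 10543.7 in the knockout and 7656.2 to 8519.7 in WT, and erythroid markers to 55690.3 to 59058.6 in the knockout and 53690.7 to 54335.4 in WT. Neutrophil markers were lower, at 56972.1 to 59484.4 in the knockout and 60919.9 to 65417.9 in WT. The pancreas, endothelial, erythroid and neutrophil sums did not overlap between the groups. Among their tested genes, 1 of 3, 1 of 9 and 1 of 5 rose and 1 of 10 fell, in that order. These calls (limma adjusted p under 0.05) stand beside 16.7% of all genes. Macrophage markers overlapped, at 7571.1 to 8547.6 in the knockout and 7411.6 to 9788.5 in WT, as did the hepatocyte and lung sums. The part of these markers in the results was not tested, and in whole liver fewer cells of a type and less RNA per cell cannot be told apart.

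Of the 9 genes tested, Ddit4 rose in the knockout and the other 8 did not pass the test. This was 1 of 9 genes, beside 16.7% of all 11346 genes tested (limma, adjusted p under 0.05). Of all genes 8.23% rose and 8.49% fell. Values of the 2 groups did not overlap for 3 of the 9 genes (Ddit4, Pik3r1 and Foxo3), beside 39.1% of all genes. The median log2 fold change of the 9 genes was 0.03, beside 0.02 over all genes. For the 8 genes that did not pass, the log2 fold changes ran from -0.32 to 0.27, and their 95% intervals reached from -0.57 to 0.51 at the most, which is 0.674-fold to 1.42-fold. The small differences of Irs2, Akt1, Foxo1 and Eif4ebp1 had the opposite sign without knockout arrays 1 and 2 (log2 fold changes of 0.10, 0.25, -0.03 and -0.08), and their direction was not settled. Tests used log2 intensities with an added offset of 16, so the change of a dim probe is understated.

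**Figure D1:**
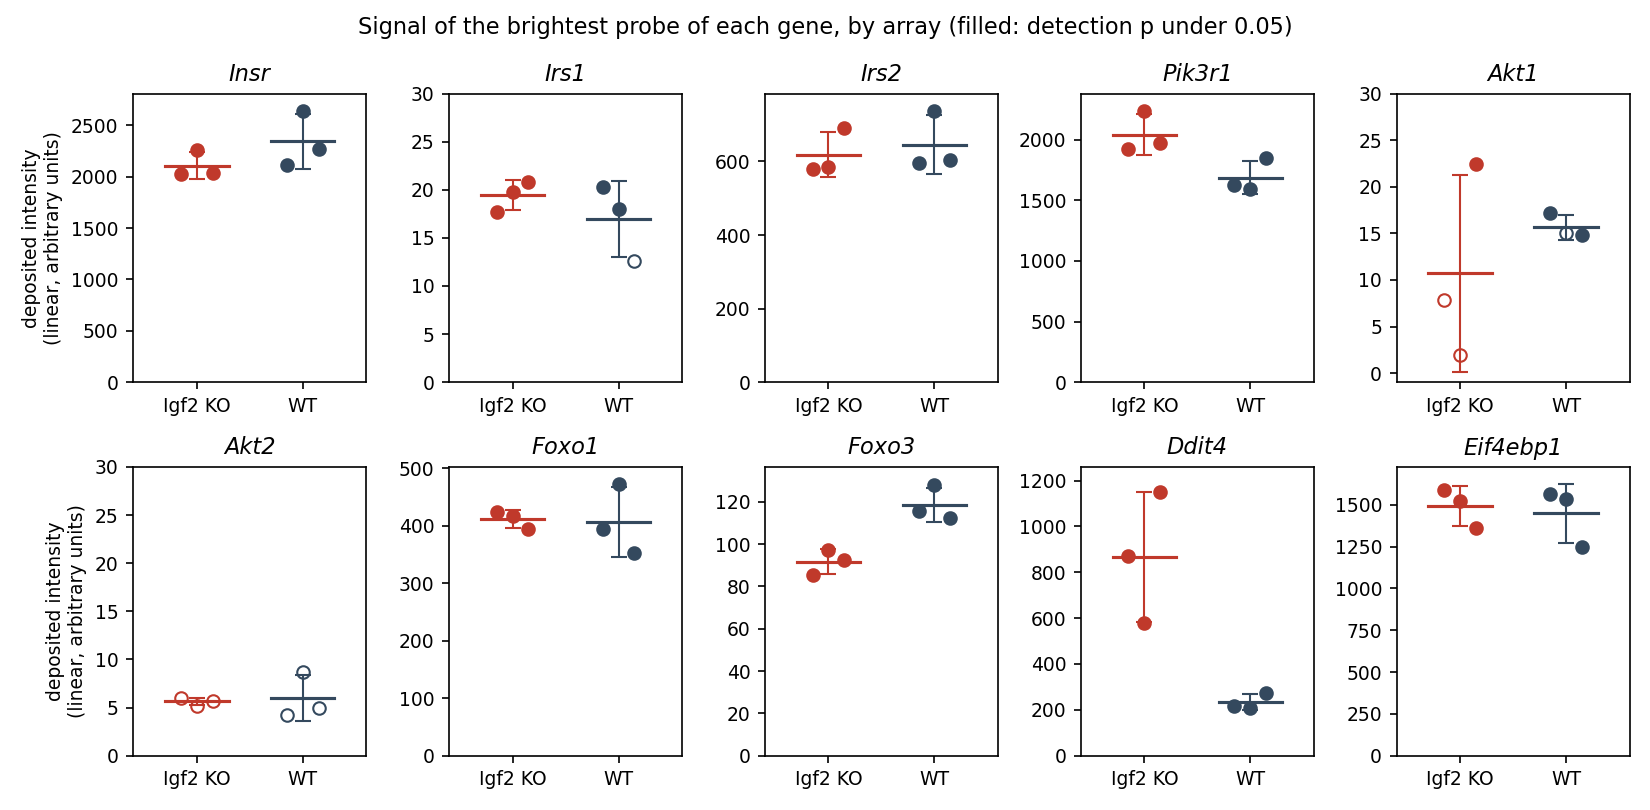
Deposited intensity (linear, arbitrary units) of the brightest probe of each of the 10 genes on 3 Igf2 knockout arrays and 3 WT arrays, with the mean and SD of each group. Points are filled where the detection p was under 0.05. Ddit4 on the knockout arrays sits between 579.6 and 1149.9, above the highest WT array at 272.5, and Akt2 has no filled point.

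Ddit4, also called REDD1, is a stress-induced protein that restrains mTORC1 by way of the TSC complex. Its probe (ILMN_2993109) had signals of 869.4, 579.6 and 1149.9 on knockout arrays 1, 2 and 3, against 217.0, 208.0 and 272.5 on WT arrays 1, 2 and 3. Every knockout array was above every WT array, and the knockout arrays were spread more widely (866 ± 285 in the knockout, 232.5 ± 34.9 in WT; SD, n = 3 each). The log2 fold change was 1.78 ± 0.23 (SE), or 3.45-fold with a 95% interval of 2.37 to 5.02, with a limma adjusted p of 0.00281. It was the 66th largest rise among the 11346 genes. The highest Ddit4 signal was on knockout array 3, which had a trace of lung transcripts where arrays 1 and 2 had far more. Without knockout arrays 1 and 2 the log2 fold change was 2.24, with a single knockout array left. Among the arrays with high Xist, Ddit4 had 869.4 and 579.6 in the knockout and 217.0 in WT. Among those with low Xist it had 1149.9 in the knockout and 208.0 and 272.5 in WT. These comparisons rest on few arrays, and the part of lung transcripts or of sex in the Ddit4 signal was not tested. Leaving out any single array gave log2 fold changes of 1.56 to 2.04 (adjusted p up to 0.0183).

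Upstream regions of 2 members are shown, that of the gene that rose and that of Irs2, an established FOXO target that did not pass the test. Both are the 250 bases before the annotated start, on the minus strand and 5′ to 3′, from RefSeq on GRCm38.p6: Ddit4 at chr10:59951771-59952020 and Irs2 at chr8:11008930-11009179. Capitals mark matches on either strand to GTAAACA (the FOXO core), CAAAACA (the insulin response sequence) or ACGTG (a form of the hypoxia response core). Other forms of the hypoxia response core were not searched.
Ddit4: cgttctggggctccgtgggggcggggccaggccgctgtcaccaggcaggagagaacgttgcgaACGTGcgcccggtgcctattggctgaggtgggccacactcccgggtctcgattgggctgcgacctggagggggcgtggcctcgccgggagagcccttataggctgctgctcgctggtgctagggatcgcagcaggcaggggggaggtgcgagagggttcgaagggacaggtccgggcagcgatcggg
Irs2: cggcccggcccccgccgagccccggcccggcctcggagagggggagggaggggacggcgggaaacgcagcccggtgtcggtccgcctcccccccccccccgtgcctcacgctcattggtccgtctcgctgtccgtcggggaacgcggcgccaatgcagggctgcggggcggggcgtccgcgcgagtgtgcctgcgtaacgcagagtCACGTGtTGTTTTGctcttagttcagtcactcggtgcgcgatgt
The Ddit4 window held ACGTG once, 187 bases before the start, and neither of the other sequences. The Irs2 window held TGTTTTG, the reverse complement of the insulin response sequence, 37 bases before the start. Just upstream of it lay CACGTG, in which ACGTG matches on both strands, overlapping itself. The first 250 bases of all 32851 table entries were searched in the same way. GTAAACA was in 3.17% of them and in 1 of 13 member windows (Akt1), CAAAACA in 5.56% and in 2 of 13 (Irs2 once, Irs1 at 2 places), and ACGTG in 16.6% and in 4 of 13 (Ddit4, Irs1, Irs2 and Akt2). The glucocorticoid response element, read as GNACA and TGTNC with NNN between them, was in 0.387% of all windows and in 0 of the 13 windows of the 8 members with an entry. These matches describe letters in short windows and show neither binding nor its absence.

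Eif4ebp1 encodes a repressor of translation that binds the cap-binding factor eIF4E until mTORC1 phosphorylates it. Its signals were 1592.0, 1524.5 and 1362.3 in the knockout and 1566.1, 1535.6 and 1247.2 in WT. The groups overlapped almost fully, and the log2 fold change was 0.05 ± 0.12 (SE; limma adjusted p = 0.818), with a 95% interval of -0.23 to 0.32. A rise of the size seen in Ddit4 lies outside that interval.

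At the top of the cascade, Insr encodes the insulin receptor. Its brightest probe (ILMN_1242794) had 2028.7, 2260.3 and 2035.1 in the knockout and 2118.1, 2642.2 and 2269.1 in WT. On knockout arrays 1 and 3 the signal was below every WT array and on array 2 it was within the WT range, and the log2 fold change was -0.15 ± 0.11 (SE; limma adjusted p = 0.383). A dimmer Insr probe had 25.2 to 45.5 in the knockout and 27.2 to 40.9 in WT, with a log2 fold change of 0.03. Another Insr probe was not detected on any array.

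Irs1 and Irs2 encode the adaptors that the receptor phosphorylates, and Irs2 is the one whose transcription FOXO factors are known to raise in liver during fasting. Irs2 had 580.4, 585.5 and 690.4 in the knockout and 594.7, 738.4 and 604.4 in WT. In both groups 2 arrays were close together and the third was higher, and the log2 fold change was -0.06 ± 0.12 (SE; limma adjusted p = 0.772). Irs1 was dim, at 17.7 to 20.8 in the knockout and 12.6 to 20.3 in WT, where array 3 was not detected. Its log2 fold change was 0.09 ± 0.10 (adjusted p = 0.563). The within-array log2 ratio of Irs2 over Irs1 differed by -0.15 between knockout and WT (exact permutation test, two-sided, p = 0.3). With 3 arrays against 3 the smallest p this test can give is 0.1.

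Pik3r1 encodes regulatory subunits of PI3-kinase, which hold the catalytic subunit and bring it to the phosphorylated adaptors. The brightest of its 4 probes (ILMN_3114641) had 1921.2, 2233.9 and 1971.0 in the knockout and 1622.8, 1596.9 and 1845.6 in WT. The second bright probe (ILMN_2473531) had 1662.1, 1946.9 and 1656.7 in the knockout and 1412.1, 1552.9 and 1625.0 in WT. On these probes every knockout array was above every WT array, by a small margin on the second. The log2 fold changes were 0.27 ± 0.11 and 0.19 ± 0.11 (SE, from the fit over all detected probes), and neither passed the test (limma adjusted p = 0.121 and 0.255). A dim probe had 8.7 to 19.4 in the knockout and 19.2 to 22.2 in WT, with a slight overlap (log2 fold change -0.24, adjusted p = 0.214), and the fourth was not detected. The annotation gives different Pik3r1 transcripts for the 2 bright probes, and the gene makes several subunits.

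Akt1 and Akt2 encode the kinases that pass the signal on, Akt2 being the one best known for insulin action in liver. Both Akt2 probes were below detection on every array, with signals of -3.9 to 6.0 in the knockout and -1.6 to 8.7 in WT, so no difference was detectable for Akt2 here. The single Akt1 probe had 7.8, 1.9 and 22.4 in the knockout, detected on array 3 alone, and 17.2, 15.0 and 14.8 in WT, detected on 2 arrays. Values this close to background carry little information, and the log2 fold change of -0.16 ± 0.17 (SE; limma adjusted p = 0.552) had the widest interval of the 9 genes apart from Ddit4.

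Foxo3 and Foxo1 encode the factors that AKT restrains. The one detected Foxo3 probe (ILMN_2501865) had 85.3, 97.3 and 92.5 in the knockout and 115.6, 127.8 and 112.3 in WT. The groups did not overlap, and the log2 fold change was -0.32 ± 0.09 (SE), with a limma adjusted p of 0.0509 that just missed the threshold. It passed in 5 of 18 alternatives, and its adjusted p ran from 0.0183 to 0.341 over them. The other 2 Foxo3 probes were not detected on any array. The brighter Foxo1 probe (ILMN_2656498) had 422.9, 416.7 and 393.8 in the knockout and 393.9, 471.8 and 352.4 in WT, with the knockout inside the WT range and a log2 fold change of 0.03 ± 0.12. The dimmer Foxo1 probe (ILMN_2509340) had 164.8, 110.5 and 186.8 in the knockout and 74.9, 108.2 and 99.5 in WT. All its knockout arrays were above WT, array 2 barely so, and its log2 fold change of 0.61 ± 0.19 did not pass (adjusted p = 0.0664 over all 21958 detected probes, of which 16% passed). In that fit 1 of the 13 probes of these genes passed and 5 did not overlap between groups, beside 37.4% of all detected probes. The within-array log2 ratio of Foxo3 over Foxo1, taken from the brightest probe of each, differed by -0.35, knockout minus WT (exact permutation test, two-sided, p = 0.1, the smallest possible). It was -0.64 when the detected probes of a gene were averaged, a setting that brings in the dimmer Foxo1 probe.

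**Figure D2:**
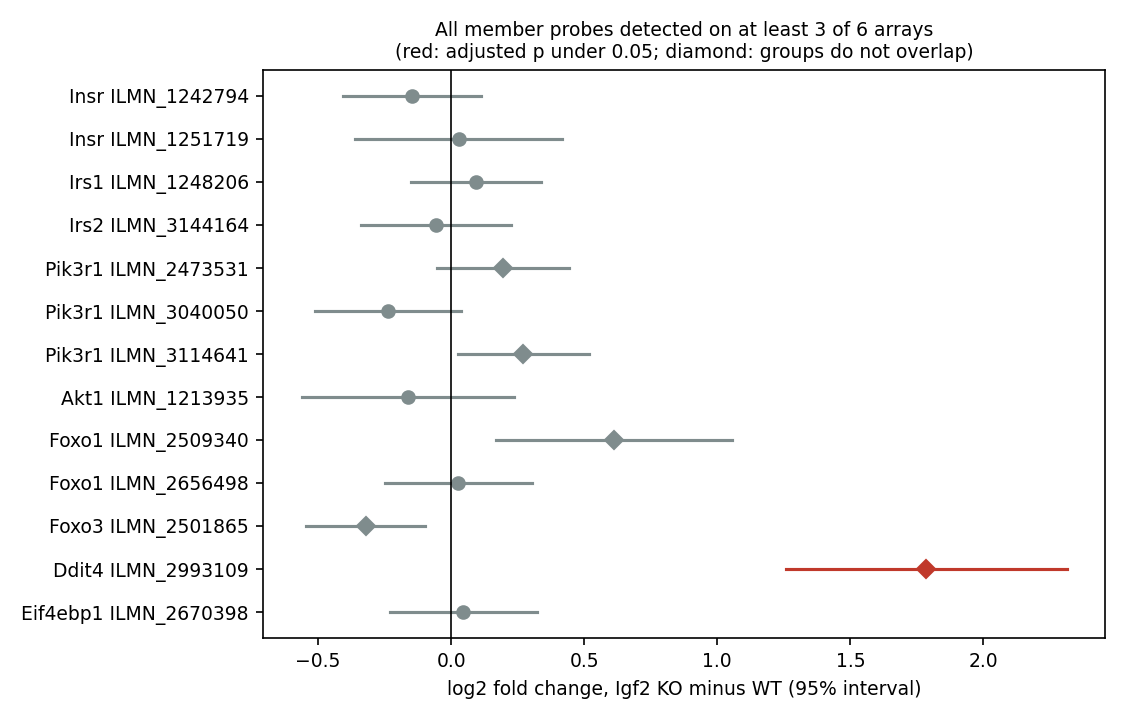
Log2 fold change (Igf2 knockout minus WT) with its 95% interval for each of the 13 probes that were detected (3 or more of 6 arrays). The Ddit4 probe alone passed the adjusted p of 0.05, at 1.78, and diamonds mark the 5 probes whose groups do not overlap.

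The wider pathway was read from lists chosen with earlier results of these data known, so their counts describe and do not test the lists. The lists share genes, Pik3ip1, Pck1 and Sgk1 among them, so their counts are not independent. Of 24 genes of the insulin receptor, its adaptors and the PI3-kinase and AKT enzymes, 18 were tested. Of these 0 passed (limma adjusted p under 0.05), beside 16.7% of all genes. Values of the groups did not overlap for 10 of the 18, beside 39.1% of all genes. Their log2 fold changes stayed between -0.31 and 0.45, with a median of 0.02. Igf1r, the receptor for IGF1 and IGF2, had the smallest p, with signals of 352.1, 426.3 and 398.8 in the knockout and 277.4, 315.3 and 320.8 in WT. Its groups did not overlap, and the log2 fold change of 0.35 ± 0.11 did not pass (adjusted p = 0.0608).

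Among inhibitors of insulin and PI3-kinase signalling, 1 of 20 tested genes rose and 3 fell. This is 20% of the list, close to the 16.7% of all genes. Ptprf, a receptor-type tyrosine phosphatase that can act on the insulin receptor, had 182.7, 227.4 and 185.3 in the knockout and 535.2, 401.5 and 406.4 in WT. All its knockout arrays were far below WT, and Ptprf fell by 1.11 on the log2 scale (adjusted p = 0.00249). Ceacam1, which promotes insulin clearance by the liver, fell by 0.61 (adjusted p = 0.011), and Grb14, an adaptor that blocks the receptor kinase, fell by 0.36 (adjusted p = 0.0416). Pik3ip1, which inhibits the PI3-kinase catalytic subunit, rose by 0.81 ± 0.12 (adjusted p = 0.00425). Its signals of 35.2 to 43.9 in the knockout and 8.9 to 17.1 in WT were dim, and it was detected on 1 WT array. Grb14 kept its call on leaving out WT array 3 and lost it on leaving out any other array (adjusted p up to 0.127). The Grb14 call was also lost when the detected probes of a gene were averaged. Without knockout arrays 1 and 2, the lung-rich ones, 1 knockout array was left, and 0 genes of this list passed, among 228 of all genes. The log2 fold changes were then -1.19 for Ptprf (adjusted p = 0.056), 0.95 for Pik3ip1 and -0.47 for Ceacam1.

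Among FOXO factors and their regulators, 1 of 16 tested genes changed (6.25%, beside 16.7% of all genes). Sgk1, a kinase related to AKT that also phosphorylates FOXO3, had 6603.2, 7253.2 and 6334.2 in the knockout and 2233.9, 1744.8 and 2757.9 in WT. The knockout arrays were all high and close together, and Sgk1 rose 3.03-fold (adjusted p = 0.00113). Of 31 tested genes known as FOXO targets, 10 rose and 2 fell, 38.7% of the list beside 16.7% of all genes. The median log2 fold change was 0.29. Pnpla2, the first lipase of triglyceride breakdown, had 2208.2, 1821.5 and 2271.8 in the knockout and 694.6, 946.6 and 597.7 in WT. Cdkn1a, the cell cycle inhibitor p21, had 1479.4, 1397.9 and 1422.2 in the knockout and 318.0, 284.7 and 585.1 in WT. Neither gene overlapped between groups. On the log2 scale Pnpla2 rose by 1.49 ± 0.17 (SE; adjusted p = 0.00188) and Cdkn1a by 1.89 ± 0.24 (adjusted p = 0.00249). Pck1, an enzyme of glucose production, rose by 1.14 (adjusted p = 0.00301). Catalase (Cat) had 2912.9, 2354.5 and 2891.0 in the knockout and 4265.9, 7450.3 and 6531.7 in WT, and it fell by 1.12 (adjusted p = 0.0107). Mttp, which loads lipid onto apolipoprotein B, also fell, by 0.88 (adjusted p = 0.00147). Irs2, Insr and Eif4ebp1 belong to this list too and were among the 19 genes that did not pass. With the level of lung transcripts as a covariate 5 rose and 1 fell, and without both lung-rich arrays 1 rose and 0 fell. In that fit, with 1 knockout array, the log2 fold changes were 1.87 for Cdkn1a, 1.01 for Pck1, -0.77 for Mttp and -1.03 for Cat, close to those above, with adjusted p from 0.0725 to 0.175.

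On the mTORC1 side, 3 of 25 tested brakes rose and 1 fell, or 16%, close to the 16.7% of all genes. Besides Ddit4, Eif4ebp3, a paralog of Eif4ebp1, had 2032.5, 1584.0 and 2037.0 in the knockout and 599.5, 1276.4 and 575.2 in WT. WT array 2 came close to the lowest knockout array, and the rise was 1.28 ± 0.29 on the log2 scale (SE; adjusted p = 0.0246). Nprl3, a subunit of the complex that turns mTORC1 off when amino acids are scarce, had 143.2, 134.0 and 131.4 in the knockout and 74.5, 76.1 and 73.4 in WT. The arrays of each group were close together, and it rose by 0.75 ± 0.08 (adjusted p = 0.00146). These signals are from the brightest of its 4 probes, and over 18 alternatives the log2 fold change of Nprl3 was 0.41 to 0.87. Deptor, which binds and inhibits the mTOR kinase, had 468.7, 472.1 and 488.0 in the knockout and 794.2, 895.2 and 593.1 in WT, and it fell by 0.64 (adjusted p = 0.0261). Ddit4l, the paralog of Ddit4, averaged 45.7 ± 3.87 in the knockout and 42.0 ± 5.47 in WT (SD, n = 3 each), with overlapping groups and a log2 fold change of 0.09. It is named here after its values were seen, as the closest relative of the gene that rose. Eif4ebp3 kept its call on leaving out array 2 of either group and lost it on leaving out any other (adjusted p up to 0.0869). Deptor kept its call on leaving out WT array 3 and lost it on leaving out any other (up to 0.0894). The Deptor call was also lost when the detected probes of a gene were averaged. Without both lung-rich arrays 1 gene of the list rose, and that gene was Ddit4. The log2 fold changes of the others were then 1.40 for Eif4ebp3, 0.70 for Nprl3 and -0.60 for Deptor.

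**Figure D3:**
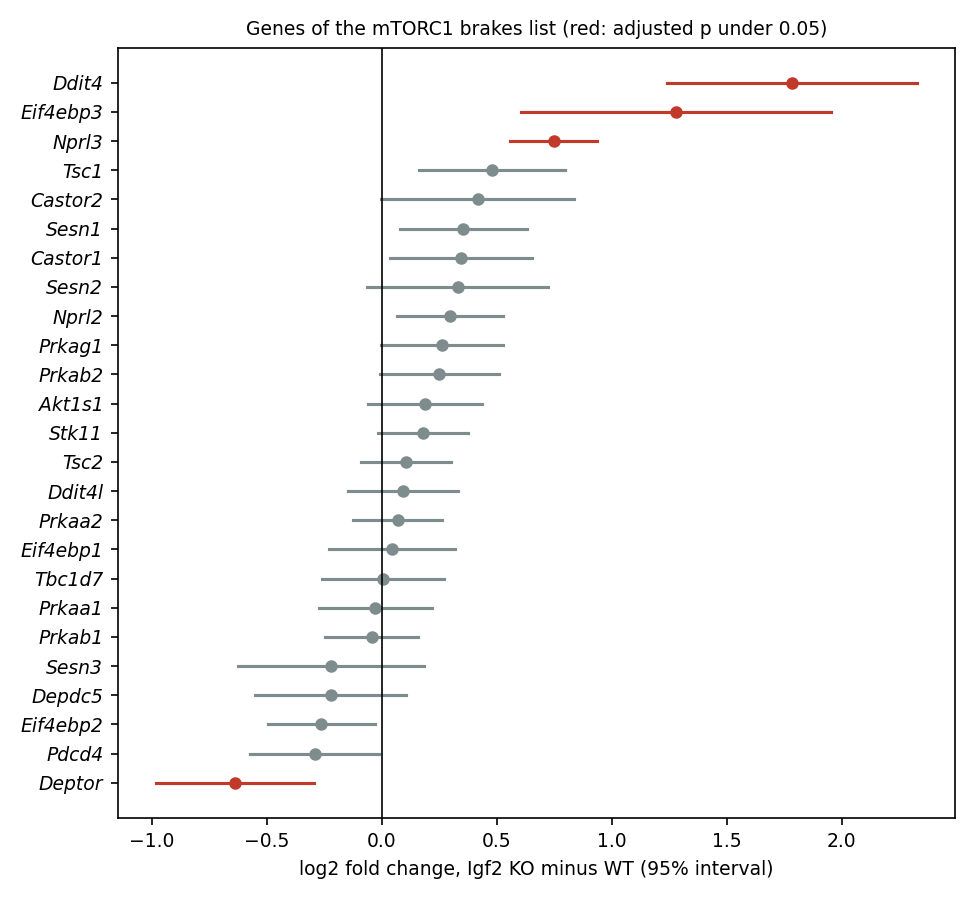
Log2 fold change (Igf2 knockout minus WT) with its 95% interval for the 25 tested genes of the mTORC1 brakes list, ordered by size. Red marks the 4 genes with an adjusted p under 0.05, Ddit4, Eif4ebp3 and Nprl3 above 0 and Deptor below 0.

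Of 19 tested genes of the mTORC1 core and its nutrient activators, 3 rose and 1 fell (21.1%, beside 16.7% of all genes). The median log2 fold change was 0.02. Rragd, a GTPase that recruits mTORC1 to the lysosome, had 60.2, 75.4 and 63.6 in the knockout and 28.2, 34.0 and 37.2 in WT, and it rose by 0.75 ± 0.11 (SE; adjusted p = 0.00493). Its relative Rragb rose by 0.38 and Eif4e, the partner of the 4E-binding proteins, by 0.47, while the translation factor Eif4b fell by 0.38, all 3 with an adjusted p between 0.034 and 0.0488. Rragb kept its call on leaving out knockout array 2 and lost it on leaving out any other array (adjusted p up to 0.144). Eif4e and Eif4b kept theirs on leaving out WT array 3 and lost them otherwise (up to 0.129 and 0.102). The Eif4b call was also lost when the detected probes of a gene were averaged. Over all alternatives the log2 fold change of Eif4b was -0.45 to -0.16. Without both lung-rich arrays 0 genes of this list passed, with Rragd at 0.70, Rragb at 0.52, Eif4e at 0.58 and Eif4b at -0.40 on the log2 scale.

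Of 10 tested hepatic genes that insulin is known to induce, 3 fell and 1 rose (40%, beside 16.7% of all genes). Of the 10, 9 had a log2 fold change below 0, and the median was -0.37. Elovl6, a fatty acid elongase, had 457.1, 393.2 and 475.6 in the knockout and 918.5, 626.2 and 902.6 in WT. Srebf1, which encodes the lipogenic factor SREBP1, had 22.2, 37.6 and 21.3 in the knockout and 82.6, 50.9 and 53.2 in WT. Both lay below WT on all knockout arrays and fell by 0.85 and 0.86 on the log2 scale (adjusted p = 0.0126 and 0.0243). Egr1, an immediate early gene, fell by 0.61 (adjusted p = 0.0413). Scd1, a desaturase, went the other way, with 736.9, 1380.0 and 650.0 in the knockout and 274.4, 193.5 and 228.0 in WT, and it rose by 1.85 ± 0.27 (SE; adjusted p = 0.00451). The Elovl6 call was lost on leaving out WT array 1 (adjusted p = 0.0507), that of Srebf1 on leaving out WT array 1 or knockout array 1 or 3 (up to 0.09), and that of Egr1 on leaving out WT array 2 or 3 or knockout array 1 or 3 (up to 0.136). Leaving out WT array 1, knockout array 1 or knockout array 3 left 1 gene lower. Without both lung-rich arrays the log2 fold changes were -0.74 for Elovl6, -1.04 for Srebf1, -0.72 for Egr1 and 1.44 for Scd1. That fit had 1 knockout array. With the level of lung transcripts as a covariate Scd1 rose by 1.28 (limma adjusted p = 0.0479).

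Ddit4 is also known to respond to glucocorticoids. In that list 12 of 20 tested genes rose, Ddit4 among them, and 1 fell (65%, beside 16.7% of all genes). The median log2 fold change was 0.88. Of those that rose, Tdo2 and Tat were detected on 3 knockout arrays and 0 WT arrays, so they met the filter through the knockout alone. The smallest p-values among those that rose belonged to Tdo2, Gpt and Sgk1. Tdo2, which degrades tryptophan, had 205.4 to 224.8 in the knockout and was not well above background on any WT array. Nr3c1, which encodes the glucocorticoid receptor, had 39.2, 49.8 and 38.7 in the knockout and 81.3, 90.8 and 69.2 in WT, below WT on all arrays, and it fell by 0.72 (adjusted p = 0.00768). Without both lung-rich arrays 4 genes of the list rose and 0 fell, and the log2 fold changes were 1.51 for Sgk1 (adjusted p = 0.0559) and -0.81 for Nr3c1 (adjusted p = 0.0916).

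**Figure D4:**
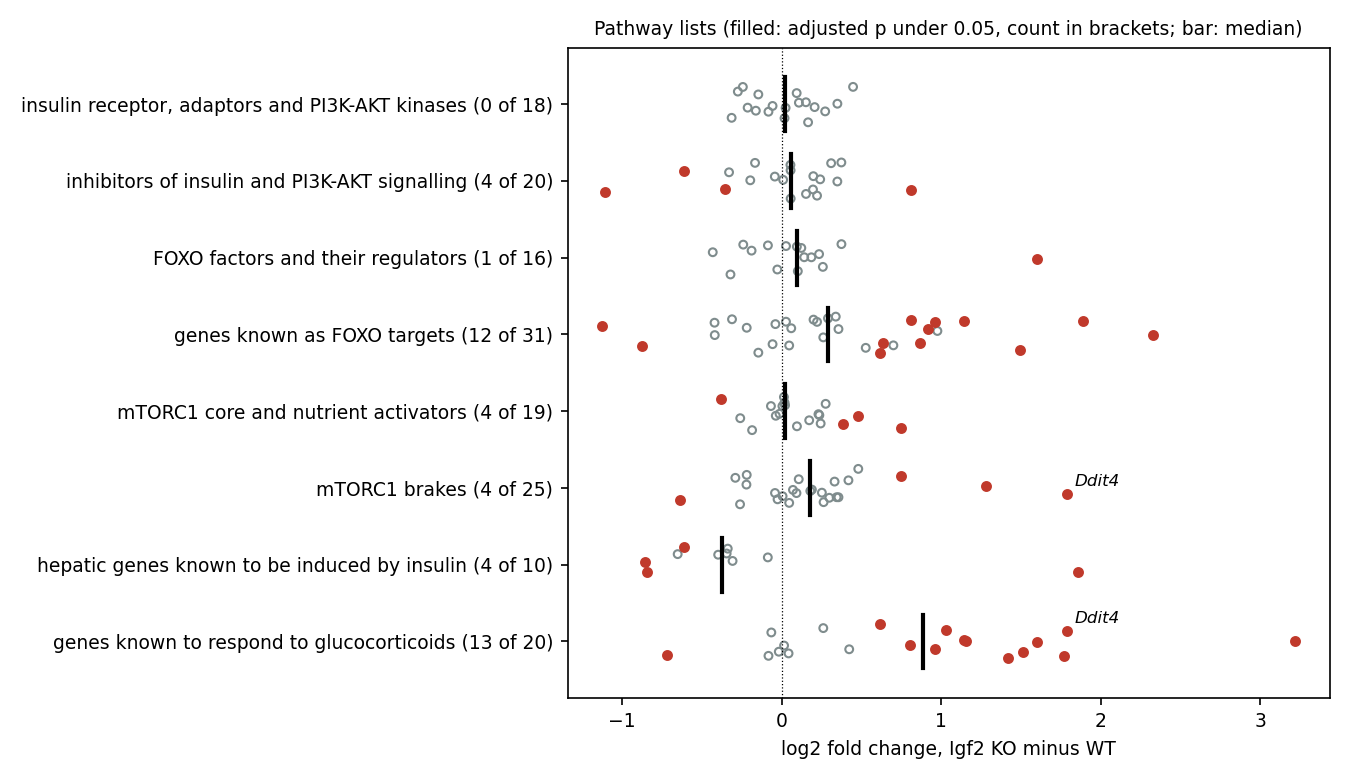
Log2 fold change (Igf2 knockout minus WT) of each tested gene in the 8 pathway lists, with the median of a list as a bar. Filled points passed an adjusted p of 0.05, and their number among the genes tested is given in brackets, from 0 of 18 for the receptor and kinase list to 13 of 20 for the glucocorticoid list.

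The genes whose profile over the 6 arrays was most like that of Ddit4, by the Euclidean distance between mean-centred log2 values, were Mybphl (0.38), Myom1 (0.47) and Mpp3 (0.50). Mybphl and Myom1 are genes of the sarcomere and Mpp3 encodes a scaffold of the membrane-associated guanylate kinase family. Mybphl had 429.2, 256.1 and 435.8 in the knockout and 90.8, 107.6 and 112.1 in WT. Like Ddit4, it was lowest on array 2 among the knockout arrays. Summed skeletal muscle markers, 5 of 9 detected on 3 or more arrays, were 365.5 to 416.2 in the knockout and 309.5 to 331.0 in WT. Of these Actn3 was higher on all knockout arrays (53.9 to 90.5 in the knockout, 21.2 to 38.3 in WT), Tnni2 was lower (46.3 to 63.0 in the knockout, 63.2 to 96.3 in WT), and Des, Mylpf and Myh8 overlapped. Their part in this likeness was not tested. The likeness covers 6 arrays of 2 groups and is a description.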

How the data were processed

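Liver RNA was labelled as biotinylated cRNA for Illumina arrays, per the labels' protocols. The authors deposited 2 tables of the same probe intensity values, on a linear scale, and 1 of them has detection p-values per probe and array, per the file headers. Its values were already background-subtracted and normalized between arrays: 25.0% to 25.1% of intensities are below 0 and sorted arrays differ by at most 0.2. The software and the genome build were not named in the sources used here. Rows were joined by their 6 intensities, since IDs repeat in the table with detection p-values (35746 distinct IDs in 45281 rows). The platform annotation gave 1 gene for 34885 probes, several for 18 and none for 10378, and symbols were updated through a RefSeq gene table.

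The analysis used limma 3.58.1 in R 4.3.3: neqc (normexp, offset 16, quantile, log2), a filter for probes detected (p under 0.05) on 3 or more of the 6 arrays (46.3% to 49.9% of probes were detected per array, 21958 probes kept), the brightest kept probe of each gene (11346 genes), then lmFit and eBayes, two-sided, with Benjamini-Hochberg adjustment over all genes. Single probes were read from a fit over all kept probes. On simulated log2 values of 11346 genes for the comparison of knockout and WT, the recovered share was 36.7% for a log2 change of 0.5, 84.0% for 1 and 98.3% for 2. The simulation drew independent values and changed a much smaller share of genes than the 16.7% that passed in the data. These recovered shares need not hold for the actual comparison.

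The members, the 8 pathway lists and the 9 marker lists were chosen with earlier results of these data known. Genes named are Igf2, all members, up to 3 changed genes in each direction per list by smallest p (or the gene of smallest p), and the 3 nearest profiles. Ddit4l, Tat and the single marker genes are named outside this rule, after their values were seen. Not every gene under the rule is given with all values. The labels number the samples 1 to 3 in each group. Deviations of same-numbered samples from their group means correlated at -0.0044, 0.028 and 0.015, and those of differently numbered samples at -0.108 to 0.108. No pairing by number showed in these values, and the main test used none. A litter or batch shared by same-numbered samples was not tested. The planned ratio of Akt2 over Akt1 was not computed, since Akt2 was not detected. The number of arrays limits the precision. Alternatives covered background, offset, filter, probe choice, variance model, array weights, pairing, sex, lung transcripts and arrays left out.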

Additional observations from a re-analysis of the deposited data

How the results depend on the processing

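Ddit4 kept its direction and passed the test in all 18 alternatives (log2 fold change 1.56 to 2.34, adjusted p up to 0.0183). Foxo3 passed, as the other member called, with no background correction (-0.37), no filter, detection on all 6 arrays or probe means (-0.32 each) and array weights (-0.36), which made 2 members changed in each of these 5 settings. The other members did not pass in any alternative that could test them. The count of all changed genes was 3025 with array weights, 1156 with the sex covariate, 576 with the lung covariate and 228 without knockout arrays 1 and 2. It was 849 (without knockout array 1) to 1880 with 1 array left out, and 989 without WT array 1. With the replicate block, which treats same-numbered samples as pairs, it was 1323, and 1 member changed.

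Counts in the lists moved as follows, and the causes were not tested. Receptor and kinase genes: 1 higher with offset 50 or the trended variance, 3 lower with array weights, 1 lower with probe means, 0 to 1 higher with 1 array left out. Inhibitors: 0 higher with detection on all 6 arrays, 4 with array weights, 1 lower with the lung covariate. FOXO regulators: 2 higher with no filter, the trended variance or array weights, 1 lower with no background correction, no filter or detection on all 6 arrays, 2 lower with array weights or probe means, and 1 to 2 higher and 0 to 1 lower with 1 array left out. FOXO targets: 5 higher and 1 lower with the lung covariate. mTORC1 core: 5 higher with array weights, 1 with the sex covariate, 0 with the lung covariate, 1 to 3 with 1 array left out, and 2 lower with offset 50, no filter, the trended variance or array weights, but 0 lower with the replicate block or either covariate and 0 to 1 with 1 array left out. mTORC1 brakes: 3 lower with array weights, 0 with the replicate block, either covariate or probe means, 0 to 2 with 1 array left out. Insulin-induced genes: 1 lower with no filter, 0 with the lung covariate, 1 to 3 with 1 array left out. Without knockout arrays 1 and 2, 0 genes were higher among inhibitors, FOXO regulators and the mTORC1 core, 1 among FOXO targets and among brakes, 4 in the glucocorticoid list, and 0 were lower in every list.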
